A study of Mus musculus with 2 samples.

Results

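Arg1-positive inflammatory macrophages were a small group of cells in the inflamed mouse gingiva, and 105 of the 21268 cells kept for the analysis belonged to it. A cell was counted as a member when it had at least 5 unique molecular identifiers (UMIs, each standing for 1 captured transcript) of Arg1. It also had to have under 0.4% of its UMIs from C1qa, C1qb and C1qc, under 3% from S100a8 and S100a9, and at most 4 UMIs of Ctsk. The last 3 conditions set aside C1q macrophages, neutrophils and osteoclasts. Of the members, 83 came from 9596 cells of the 10% Tet2-/- BMT library and 22 from 11672 cells of the 10% Tet2+/+ BMT library. The members were thus chosen by their measured Arg1, C1q, S100 and Ctsk transcripts, so the levels of these genes are given here as a description, and so is every difference between the members and other cells.

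Arginase 1, the product of Arg1, splits arginine into ornithine and urea, and in macrophages it competes with inducible nitric oxide synthase for the same substrate. Arg1 is a textbook marker of macrophages exposed to interleukin 4, but it is also induced in macrophages that enter wounds, tumours and infected tissue. Such cells are known to come from blood monocytes, to secrete osteopontin, activin A and interleukin 1, and to rely on glycolysis where oxygen is low. In periodontitis a ligature tied around a tooth collects bacteria and brings neutrophils and monocytes into the gum within days.

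Both groups were mice examined 12 weeks after a bone marrow transplant. The first had received a transplant labelled 10% Tet2-/- and the second one labelled 10% Tet2+/+. The TET2 enzyme removes methyl marks from DNA by oxidation, and its gene is often lost in clonal blood cell expansions. All mice had ligature-induced periodontitis for 5 days, and CD11b+ cells were sorted from the gingiva and profiled by droplet 3' RNA sequencing. The gates differed, since the protocol names CD45.2+CD11b+ cells for 10% Tet2-/- and CD45+CD11b+ cells for 10% Tet2+/+, although both sample titles name CD45.2. Gate and genotype therefore cannot be told apart, and neither can cells of donor and host in the second gate. What makes up the rest of each graft, the ages of the mice, how many were pooled and which part of Tet2 is deleted are not given in the sources used here. There was 1 library per group, so no difference between the groups has a replicate check and none carries a p-value.

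The kept cells held 85289763 UMIs in the 10% Tet2-/- library and 87908757 in the 10% Tet2+/+ library, with medians of 5920 and 5009 per cell. Members were deeper than the average cell, with medians of 11221 and 10635.5 UMIs and 1004591 and 234551 UMIs in all. The rule asks for a set number of Arg1 UMIs whatever the depth of a cell, so it favours deep cells. The libraries shared 31 cell barcodes, and 0 of them belonged to a member. Tet2 had 149 UMIs in members of the 10% Tet2-/- library, or 148 CPM (counts per 1000000 UMIs of the class) with an exact Poisson interval of 125 to 174, and 24 UMIs or 102 CPM (65.6 to 152) in members of the 10% Tet2+/+ library. Since the deleted part of the gene is not given and the reads come from the 3' end, these counts do not check the genotype. All intervals are at 95% and cover counting error only. The libraries also differed in sex, since 69 of 83 members of the 10% Tet2-/- library had Xist without Y-linked transcripts, 4 had Y-linked ones alone and 3 had both, while of 22 members of the 10% Tet2+/+ library 17 had Y-linked transcripts alone and 0 had Xist. Sex and genotype therefore cannot be told apart either.

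Members made up 0.865% of the kept cells in the 10% Tet2-/- library (exact Clopper-Pearson interval 0.689 to 1.07%) and 0.188% in the 10% Tet2+/+ library (0.118 to 0.285%). The ratio of the shares was 4.59, with an exact conditional binomial interval of 2.84 to 7.71. Set against monocytes, which do not depend on how many neutrophils passed the gate, there were 6.63 members per 100 monocytes in the 10% Tet2-/- library and 1.83 in the 10% Tet2+/+ library, a ratio of 3.62 (2.24 to 6.09). The rule used Arg1, so this is a count of cells passing it in 2 libraries that were gated differently. Of the cells with 5 or more Arg1 UMIs, 98 in the 10% Tet2-/- library and 29 in the 10% Tet2+/+ library, the limits on C1q, S100 and Ctsk removed 15 and 7. Cells just outside the Arg1 threshold, with 3 or 4 UMIs, numbered 10 in the 10% Tet2-/- library, where they had 86.5 CPM of Spp1, 1672 CPM of Inhba and 480.4 CPM of Cxcl3. The 14 cells just inside it in that library, with 5 to 10 UMIs, had 1627, 1674 and 3634 CPM of the same genes, and the 69 cells above had 5052, 1804 and 6467 CPM. In the 10% Tet2+/+ library the 5 cells just outside had 1355, 356 and 1656 CPM, the 5 just inside 7460.2, 6628 and 1865 CPM, and the 17 above 2709, 1789.5 and 5168 CPM. Inhba therefore stood at nearly the same level on both sides of the threshold in the 10% Tet2-/- library. The band just outside was the lowest of the 3 in both libraries for all 3 genes. For Spp1 and Inhba the order of the 2 bands inside the threshold differed between the libraries.

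To show which regulatory letters stand next to the transcripts that follow, the 250 bases upstream of the annotated start are printed for 3 marker genes, 2 chemokine genes and 2 genes of low-oxygen metabolism. They were chosen after the expression values were seen. The sequences are from RefSeq on the mouse build GRCm38.p6, each 5' to 3' on the strand of the gene. Capitals mark matches, on either strand, to TTGCNNAA (a short element of the C/EBP type) in Inhba, Saa3 and Il6, to GGGAA and TTCC around any single base (NF-kB type) in Cxcl3 and Cxcl2, and to ACGTG (the core of the hypoxia response element) in Bnip3 and Pgk1. In Cxcl3 and Cxcl2 a match on each strand overlaps the other by all but 1 base at each end.
Inhba, chr13:16011601-16011850, plus strand: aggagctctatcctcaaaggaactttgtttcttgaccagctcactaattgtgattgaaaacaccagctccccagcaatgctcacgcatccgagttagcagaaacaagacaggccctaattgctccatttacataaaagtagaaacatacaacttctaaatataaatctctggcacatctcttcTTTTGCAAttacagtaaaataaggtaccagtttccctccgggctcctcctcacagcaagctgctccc
Saa3, chr7:46715677-46715926, minus strand: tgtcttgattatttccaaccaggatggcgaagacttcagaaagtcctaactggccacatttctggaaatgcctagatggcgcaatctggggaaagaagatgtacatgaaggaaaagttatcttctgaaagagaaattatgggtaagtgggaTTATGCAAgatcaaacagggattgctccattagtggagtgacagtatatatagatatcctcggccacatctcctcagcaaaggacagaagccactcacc
Il6, chr5:30012864-30013113, plus strand: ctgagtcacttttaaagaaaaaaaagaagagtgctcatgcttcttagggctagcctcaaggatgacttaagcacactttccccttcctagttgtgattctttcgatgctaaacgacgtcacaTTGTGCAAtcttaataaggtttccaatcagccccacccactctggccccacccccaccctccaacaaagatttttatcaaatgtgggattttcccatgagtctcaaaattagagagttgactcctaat
Cxcl3, chr5:90785851-90786100, plus strand: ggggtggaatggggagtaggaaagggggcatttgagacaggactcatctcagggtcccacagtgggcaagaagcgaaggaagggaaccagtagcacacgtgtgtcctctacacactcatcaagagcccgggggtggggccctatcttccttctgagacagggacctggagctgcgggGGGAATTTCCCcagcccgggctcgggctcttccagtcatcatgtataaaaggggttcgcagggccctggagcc
Cxcl2, chr5:90903649-90903898, plus strand: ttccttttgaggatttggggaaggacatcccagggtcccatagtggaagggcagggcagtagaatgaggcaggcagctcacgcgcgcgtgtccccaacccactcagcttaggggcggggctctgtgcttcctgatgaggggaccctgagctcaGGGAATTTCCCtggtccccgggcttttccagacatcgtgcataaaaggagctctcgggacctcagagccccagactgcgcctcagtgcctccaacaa
Bnip3, chr7:138909507-138909756, minus strand: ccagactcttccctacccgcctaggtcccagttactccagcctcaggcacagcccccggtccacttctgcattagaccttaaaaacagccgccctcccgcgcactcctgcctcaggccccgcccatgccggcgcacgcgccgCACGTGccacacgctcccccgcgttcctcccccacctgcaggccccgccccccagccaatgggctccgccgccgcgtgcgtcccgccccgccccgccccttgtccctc
Pgk1, chrX:106186850-106187099, plus strand: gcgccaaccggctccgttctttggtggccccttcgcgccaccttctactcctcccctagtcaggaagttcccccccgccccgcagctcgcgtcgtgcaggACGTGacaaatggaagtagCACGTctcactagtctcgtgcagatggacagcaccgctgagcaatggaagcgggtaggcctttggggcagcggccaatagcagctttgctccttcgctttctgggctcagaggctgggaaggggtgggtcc

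Among 32851 such windows, 9.56% held TTGCNNAA, 0.283% held the NF-kB type match and 16.6% held ACGTG. The first was in the windows of all 4 given markers that have one, namely Il6, Inhba, Saa3 and Spp1, where in Spp1 it is in the window of a second, downstream start only, and Arg1 has no window in the table. The second was in 4 of 8 CXC chemokine genes with a window, Cxcl1, Cxcl2, Cxcl3 and Cxcl10, and the third in 9 of 14 hypoxia response genes and 11 of 19 glycolysis genes. The match lay 67 to 60 bases before the start in Inhba, 99 to 92 in Saa3 and 128 to 121 in Il6. A gene was counted when any of its windows matched, whereas the shares are per window, so the gene counts and the shares are not alike. The lists were also scanned for other elements and not all counts are given. The NF-kB type match was in 1 of 11 NF-kB target genes and 0 of 12 cytokine genes with a window. TTGCNNAA was in 8 of 15 matrix protease and inhibitor genes. The windows were not matched for base composition, and a match describes letters, not binding.

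The name macrophage was checked against transcripts that the rule did not use. The macrophage markers Csf1r, Msr1, Adgre1, Cd68, Fcgr1, Mertk, Mrc1 and Lyz2 were each above 10 CPM in the members of both libraries. Of the 9 macrophage markers listed, 8 were above 10 CPM in monocytes as well, so their presence does not separate the members from monocytes. The 9 summed to 6209 and 8851 CPM in members of the 10% Tet2-/- and 10% Tet2+/+ libraries. The sums were higher in monocytes, at 16492 and 18868 CPM, and in C1q macrophages, at 11727 and 12143 CPM. Monocytes were gated on at least 5 UMIs of Lyz2, which is among the 9, so their sum is partly set by the gate. Csf1r, the receptor for the macrophage growth factor, stood at 356 CPM in members of the 10% Tet2-/- library and 478 CPM in those of the 10% Tet2+/+ library. It was detected in 67 of 83 and 22 of 22 members. After thinning every cell to 2000 UMIs it was still found in 41.2% and 63.6% of them. T and B cells, 342 and 540 after thinning, serve here as a class that should lack macrophage transcripts. A count of 0 in them allows shares of up to 0.877% and 0.556%. Their gate required 0 UMIs of Csf1r, so their lack of it was fixed by the gate and is no check for this gene. Msr1, a scavenger receptor, had 327 and 431 CPM. Adgre1, which encodes F4/80, had 94.6 CPM in members of the 10% Tet2-/- library and 93.8 CPM in members of the 10% Tet2+/+ library, against 364 and 337 CPM in C1q macrophages. Of the 9 resident macrophage markers, 5 were above 10 CPM in members of the 10% Tet2-/- library and 6 in members of the 10% Tet2+/+ library. Cd163, Lyve1 and Timd4 had 0 UMIs in the members of either library, and Folr2 had 1 and 9 UMIs. The 9 resident macrophage markers summed to 4176 and 3786 CPM in members, against 53527.5 and 48567 CPM in C1q macrophages. The C1q genes among these 9 were limited by the rule.

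Markers of other cell types gave a mixed picture. The 8 monocyte markers were all detected, but Ly6c2 stood at 237 and 205 CPM in members of the 10% Tet2-/- and 10% Tet2+/+ libraries, against 1441 and 1188 CPM in monocytes, which were gated on it. The 11 neutrophil markers summed to 4563 and 3743 CPM in members, against 5134 and 4517 CPM in monocytes. S100a8 and S100a9, which the rule limited, gave 1680 and 1948 UMIs of that sum in the 10% Tet2-/- library and 283 and 393 UMIs in the 10% Tet2+/+ library, so the sum is partly set by the rule. S100a8 was found in 87.5% and 90.9% of thinned members but also in 83.3% and 93.7% of T and B cells (median depth 5297.5 and 5054 UMIs before thinning), so it is read as background. The osteoclast gene Acp5 had 366 and 921 CPM against 23.7 and 21.5 CPM in monocytes, while Ocstamp had 2 and 0 UMIs. The 5 mast cell and basophil markers had 0 UMIs in the members of both libraries, and fibroblast, endothelial, epithelial and NK markers each summed to under 20 CPM. Haemoglobin and Alas2 transcripts of red cell precursors summed to 20954 CPM in members of the 10% Tet2-/- library and 43517 CPM in those of the 10% Tet2+/+ library, and the few cells that carry them are described further on.

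The 5 genes given as markers did not mark every member. Arg1 itself had a median of 32.2 UMIs per 10000 in members of the 10% Tet2-/- library (lowest 1.63, highest 169.9) and 29.5 in members of the 10% Tet2+/+ library (lowest 5.13, highest 123). Summed over members it came to 3661 and 4119 CPM, against 1.91 and 1.09 CPM in monocytes and 3.36 and 3.31 CPM in C1q macrophages, a gap the rule itself makes. In thinned T and B cells Arg1 was present in 1 of 342 and 0 of 540 cells.

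Inhba, which encodes the subunit of activin A, a ligand of the TGF-beta family, was also found in most members of both libraries. It was present in 68 of 83 members of the 10% Tet2-/- library and 14 of 22 of the 10% Tet2+/+ library, with medians of 15.6 and 18.5 UMIs per 10000. The 2 libraries overlapped over nearly their whole range, with highest cells at 152 and 157. After thinning, 72.5% and 54.5% of members had Inhba, against 1.17% of T and B cells in the 10% Tet2-/- library and 0 of 540 in the 10% Tet2+/+ library.

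Spp1, which encodes the secreted matrix protein and cytokine osteopontin, was present in 57 of 83 and 14 of 22 members, and its values were very uneven. The median was 6.78 UMIs per 10000 in members of the 10% Tet2-/- library and 4.5 in those of the 10% Tet2+/+ library, while the highest cells reached 497 and 542. Saa3, an acute-phase protein of macrophages, was present in 24 and 2 members, with a median of 0 in both libraries and highest values of 484 and 118. Il6, the cytokine that drives acute-phase responses, was found in 17 and 2 members and reached 44.8 and 16.1 UMIs per 10000. Saa3 and Il6 were thus found in a minority of the cells. None of the thinned members held all 4 of these other markers, and 7 of 80 and 4 of 22 held none of them.

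**Figure D1:**
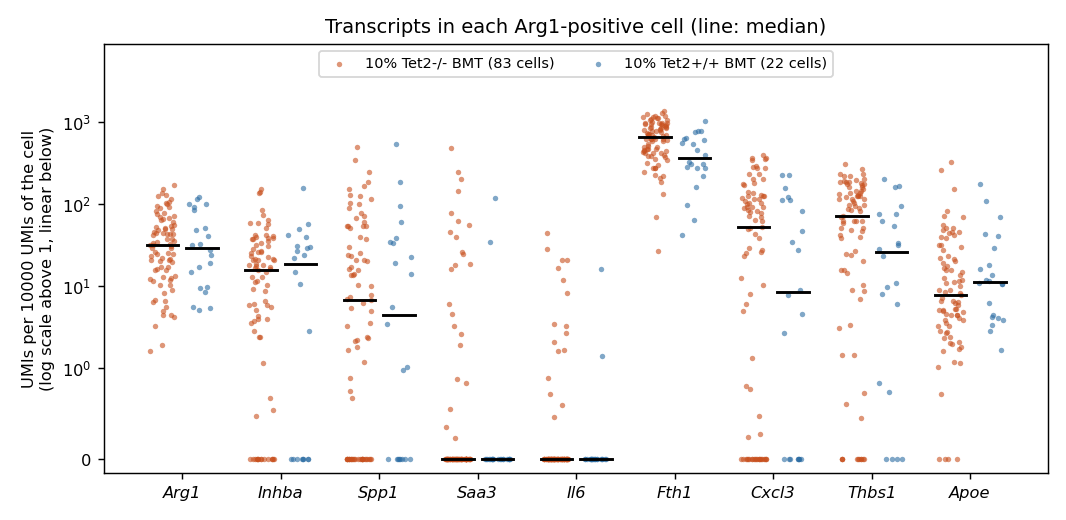
UMIs per 10000 of each Arg1-positive cell (log scale above 1, linear below) for the 5 given markers and Fth1, Cxcl3, Thbs1 and Apoe; each point is 1 cell, 83 cells of 10% Tet2-/- BMT on the left of each pair and 22 of 10% Tet2+/+ BMT on the right, and the line is the median. Arg1 and Fth1 are above 0 in every cell, while Saa3 and Il6 have a median of 0 in both libraries.

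Saa3 and Spp1 were seldom found at a level in the same cell. Above 1 UMI per 10000, 14 members of the 10% Tet2-/- library had Saa3 without Spp1, 49 had Spp1 without Saa3, 5 had both and 15 had neither. In the 10% Tet2+/+ library the counts were 1, 12, 1 and 8. Counting any UMI, the 10% Tet2-/- library had 24 members with Saa3, 57 with Spp1 and 9 with both. The division was drawn after the values were seen, and the Saa3 cells were shallower, with a median of 6860 UMIs against 11612 in the Spp1 cells of the 10% Tet2-/- library.

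**Figure D2:**
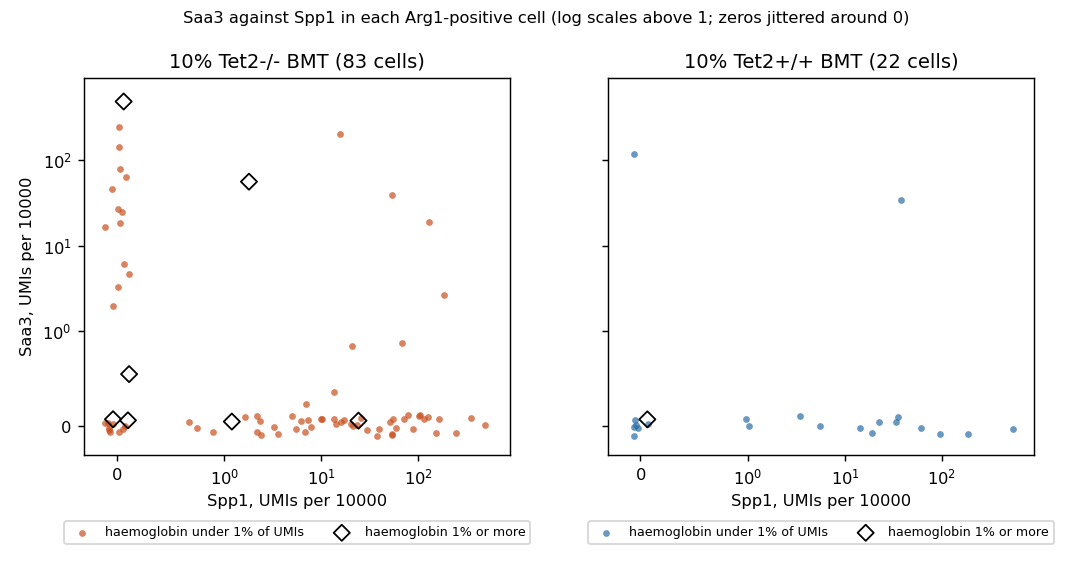
Saa3 against Spp1 in UMIs per 10000 for each Arg1-positive cell (log scales above 1, linear below, zeros spread around 0), with 10% Tet2-/- BMT on the left and 10% Tet2+/+ BMT on the right; open diamonds are cells with 1% or more of their UMIs from haemoglobin. Most cells lie along 1 of the 2 axes, and 5 and 1 cells are above 1 on both.

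The 2 kinds of cell differed in other transcripts as well, compared here within the 10% Tet2-/- library only, since the 10% Tet2+/+ library had 1 cell with Saa3 alone. In the 14 cells with Saa3 and the 49 with Spp1, Il1rn, the natural antagonist of interleukin 1, came to 6413 and 2273 CPM. Inhba came to 2862 CPM and was found in 14 of 14 cells with Saa3, against 1707 CPM and 38 of 49 cells with Spp1. Nos2, which encodes inducible nitric oxide synthase, stood at 655 CPM in cells with Saa3 and 81.4 CPM in cells with Spp1, although 1 cell held 49.4% of the counts in the first. Thbs1, which encodes the matrix protein thrombospondin 1, had 11465 and 6213 CPM, and Cd274, which encodes the checkpoint ligand PD-L1, 689 and 307 CPM. The cells with Saa3 were lower in Apoe, which encodes a lipid carrier, at 1186 against 4749.9 CPM, and in fibronectin (Fn1) at 863 against 2051 CPM. Among the cells with Spp1, Apoe reached 325 UMIs per 10000 in a cell of 20626 UMIs and 264 in a cell of 34222. The median of all members of that library was 7.77, so the Apoe sum rests partly on few cells. Across thinned members of that library the rank correlation of Apoe was 0.04 with Spp1 and -0.05 with Saa3. Pgk1 (1161 and 1100.3 CPM) and the cystine transporter Slc7a11 (1659 and 1589 CPM) were at like levels in the 2 kinds. These values rest on few cells of 1 library and are a description.

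Some members carried red cell transcripts. Haemoglobin genes took 1% or more of the UMIs in 7 of 83 members of the 10% Tet2-/- library (12.5 to 42.2%) and in 1 of 22 members of the 10% Tet2+/+ library (47.6%), and at most 0.115% and 0.0899% in the others. All 8 cells also had Alas2, the first enzyme of haem synthesis in red cell precursors. In the 10% Tet2-/- library, the members with and without haemoglobin had 3314 and 3698 CPM of Arg1, 70914.6 and 58217 CPM of Fth1 and 4986 and 6023 CPM of Cxcl3. They differed more in Spp1 (210.4 and 4833 CPM), Lyz2 (1115 and 4854 CPM) and Saa3 (3272 and 942 CPM). Only 3 of the 7 cells with haemoglobin had Saa3, and 3 had Spp1. One of them had the highest Saa3 level of all members of that library, 484 UMIs per 10000, so the Saa3 sum rests on few cells. Whether these droplets held 2 cells was not tested. Among all kept cells 40 in the 10% Tet2-/- library and 16 in the 10% Tet2+/+ library had 1% haemoglobin or more.

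The members were then set against 2 other kinds of cell gated from the same libraries. Monocytes had at least 3 UMIs of Ly6c2 and Ccr2 together and at least 5 of Lyz2, and numbered 1251 in the 10% Tet2-/- library and 1201 in the 10% Tet2+/+ library. C1q macrophages had 0.4% or more of their UMIs from C1q genes and numbered 622 and 620. Neither gate took cells with over 4 Arg1 UMIs. Levels are summed UMIs of the class in CPM, log2 ratios used a pseudocount of 10 CPM, and a gene was called when it passed 2-fold in the same direction in both libraries. A gene was included when, in each library, 1 of the classes reached 50 CPM and their counts summed to 100 UMIs or more. Against monocytes, 315 of 3064 genes were higher in the members (10.3%) and 289 lower (9.43%), while 2 genes passed 2-fold in opposite directions (0.0653%). Against C1q macrophages, 349 of 2969 were higher (11.8%), 238 lower (8.02%) and 0 opposite (0.0%). The classes are cut by transcripts, so these counts describe how the gates differ and were not tested. Monocytes were deeper than members, with medians of 13620.0 and 12601 UMIs, and C1q macrophages shallower, with 10819 and 8287.

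The gene lists below used a lower minimum, 10 CPM in any class and library, since several members of interest have few counts. At that minimum 5.32% of 8370 genes were higher and 5.57% lower in the members than in monocytes, and 5.95% of 8469 were higher and 5.03% lower than in C1q macrophages. The median log2 ratio of all these genes was -0.14 in the 10% Tet2-/- library and -0.11 in the 10% Tet2+/+ library against monocytes, and -0.06 and -0.03 against C1q macrophages. The counts of each list are read beside these values and were not tested.

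Besides Arg1, other enzymes of arginine metabolism were present. Of 13 measured genes in the list without Arg1, 5 were higher than in monocytes and 0 lower, with median log2 ratios of 0.22 and 0.38 in the 10% Tet2-/- and 10% Tet2+/+ libraries. Nos2 had 218 CPM in members and 0.537 CPM in monocytes of the 10% Tet2-/- library, and 298 and 0.0574 CPM in the 10% Tet2+/+ library. It was found in 25 of 83 and 6 of 22 members, so that transcripts of both arginine-consuming enzymes were present in some of the same cells. Ass1, which remakes arginine from citrulline, had 372 CPM in members and 110.0 CPM in monocytes of the 10% Tet2-/- library, and 273 and 70.6 CPM in the 10% Tet2+/+ library. Acod1, which makes the antimicrobial metabolite itaconate, had 633 and 84.6 CPM in the first library, and 145 and 38.8 CPM in the second.

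Cytokine transcripts were higher than in monocytes. Of 15 measured, 10 were higher than in monocytes and 0 lower, with median log2 ratios of 2.04 and 1.91. Against C1q macrophages the counts were 8 higher and 1 lower of 16. Il1b, the main secreted form of interleukin 1, had 12214 CPM in members and 2962 CPM in monocytes of the 10% Tet2-/- library, and 13183 and 2453 CPM in the 10% Tet2+/+ library, 4.12-fold and 5.37-fold higher. Its relative Il1a was 22.1-fold and 62.4-fold higher, and the antagonist Il1rn 16.4-fold and 32.3-fold. Ligand and antagonist of the same receptor were thus both higher in these cells. Csf3, the growth factor of neutrophils, had 399 and 333 CPM in members, in 32 of 83 and 6 of 22 cells, against 14 and 0.172 CPM in monocytes. Tnf was 11.5-fold and 6.30-fold higher than in monocytes. Inhba, of the activin and TGF-beta list (2 higher and 0 lower of 10 against monocytes), was 16.1-fold higher in the 10% Tet2-/- library and 295-fold higher in the 10% Tet2+/+ library, where monocytes had 8.16 CPM of it against 110.5 CPM in the other.

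The neutrophil-attracting chemokines Cxcl3 and Cxcl2 stood far above both other classes. Cxcl3 had 5925 CPM in members and 85.9 CPM in monocytes of the 10% Tet2-/- library, 69.0-fold higher (65.4 to 72.8), and 4745 and 31.5 CPM in the 10% Tet2+/+ library, 151-fold higher (136 to 167). Against C1q macrophages it was 218-fold and 111-fold higher. Ranked by the smaller of the log2 ratios of the 2 libraries, and leaving out the genes of the rule, Cxcl3 came first in both comparisons. Cxcl2 had 18864 and 12939.6 CPM in members, 10.6-fold and 14.7-fold higher than in monocytes. Of 8 CXC chemokines 5 were higher than in monocytes and 0 lower. Against C1q macrophages 3 of 9 were higher and 1 lower, with median log2 ratios of -0.10 and 0.33, so the list as a whole was not higher there. Of 11 CC chemokines, which attract monocytes and lymphocytes, 2 were higher and 1 lower than in monocytes, and 1 was higher and 4 lower than in C1q macrophages. The members had almost none of the Ccl8 and Ccl12 of C1q macrophages, with 13.9 and 696 CPM of Ccl8 in the 10% Tet2-/- library and 8.53 and 802 CPM in the 10% Tet2+/+ library. Ccl12 had 7.96 and 886 CPM in the first, and 21.3 and 800.4 CPM in the second.

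Ptgs2, the inducible cyclooxygenase of prostaglandin synthesis, had 4462 CPM in members and 329 CPM in monocytes of the 10% Tet2-/- library, and 2925 and 173 CPM in the 10% Tet2+/+ library. Ptges, the next enzyme towards prostaglandin E2, had 215 and 2.98 CPM in the first and 286 and 0.976 CPM in the second, and came from 33 of 83 and 7 of 22 members. Of 11 eicosanoid enzymes, 4 were higher than in monocytes and 0 lower. Ptgs1, the constitutive cyclooxygenase, had 11.9 CPM in members and 117 CPM in C1q macrophages of the 10% Tet2-/- library, and 0 and 97.6 CPM in the 10% Tet2+/+ library.

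Genes of the extracellular matrix formed the list with the largest median against C1q macrophages, with log2 ratios of 3.86 and 3.67 and 6 of 7 genes higher. Against monocytes, 4 of 6 were higher, with medians of 2.89 and 3.81. Thbs1 had 7478 CPM in members and 862 CPM in monocytes of the 10% Tet2-/- library, and 4975 and 418 CPM in the 10% Tet2+/+ library. Spp1 was 30.9-fold (29.5 to 32.4) and 74.2-fold (67.1 to 82.1) higher than in monocytes. Of 16 matrix proteases and inhibitors, 11 were higher than in monocytes and 0 lower. Mmp14, a membrane-bound collagenase, had 546 and 17.1 CPM in the 10% Tet2-/- library and 767 and 11.2 CPM in the 10% Tet2+/+ library, and was found in 78 of 83 and 22 of 22 members. After thinning it was seen in 65.0% and 72.7% of members and in 0.292% and 0.370% of T and B cells. Timp1, which encodes an inhibitor of matrix metalloproteinases, was 19.5-fold and 33.3-fold higher than in monocytes. Pdpn, a membrane glycoprotein, and Sdc1, a heparan sulphate carrier, were 49.1-fold and 22.9-fold higher in the 10% Tet2-/- library. In the 10% Tet2+/+ library, where monocytes had 0.345 CPM of Pdpn and 4.94 CPM of Sdc1, the ratios were 1819-fold (816 to 5036) and 143-fold (109.8 to 188). Vegfa, the factor of blood vessel growth, had 425 and 622 CPM in members of the 10% Tet2-/- and 10% Tet2+/+ libraries, against 27.3 and 18.7 CPM in monocytes.

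The ranking against monocytes also held the cholesterol exporter Abca1, with 515 CPM in members and 22.3 CPM in monocytes of the 10% Tet2-/- library, and 836 and 19.2 CPM in the 10% Tet2+/+ library. Ecm1 was 18.5-fold and 30.7-fold higher than in monocytes, and Sdc4, a heparan sulphate carrier like Sdc1, 14.4-fold and 25.2-fold. Pf4, known as a platelet chemokine, had 588 and 576 CPM in members, with 47.5% and 61.5% of the counts in 1 cell, while the platelet genes Ppbp, Itga2b and Gp9 had 0 UMIs. Against C1q macrophages, Saa3 was 224-fold (162 to 320.1) and 162-fold higher. Slpi, which inhibits neutrophil elastase, had 6076 CPM in members and 81.6 CPM in C1q macrophages of the 10% Tet2-/- library, and 2430.2 and 55.0 CPM in the 10% Tet2+/+ library. F10, which encodes coagulation factor X, was 84.4-fold and 21.9-fold higher than in C1q macrophages, Malt1, a protease of NF-kB signalling, 17.2-fold and 15.8-fold, and Hilpda, a lipid droplet protein induced by low oxygen, 34.7-fold and 32.0-fold.

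**Figure D3:**
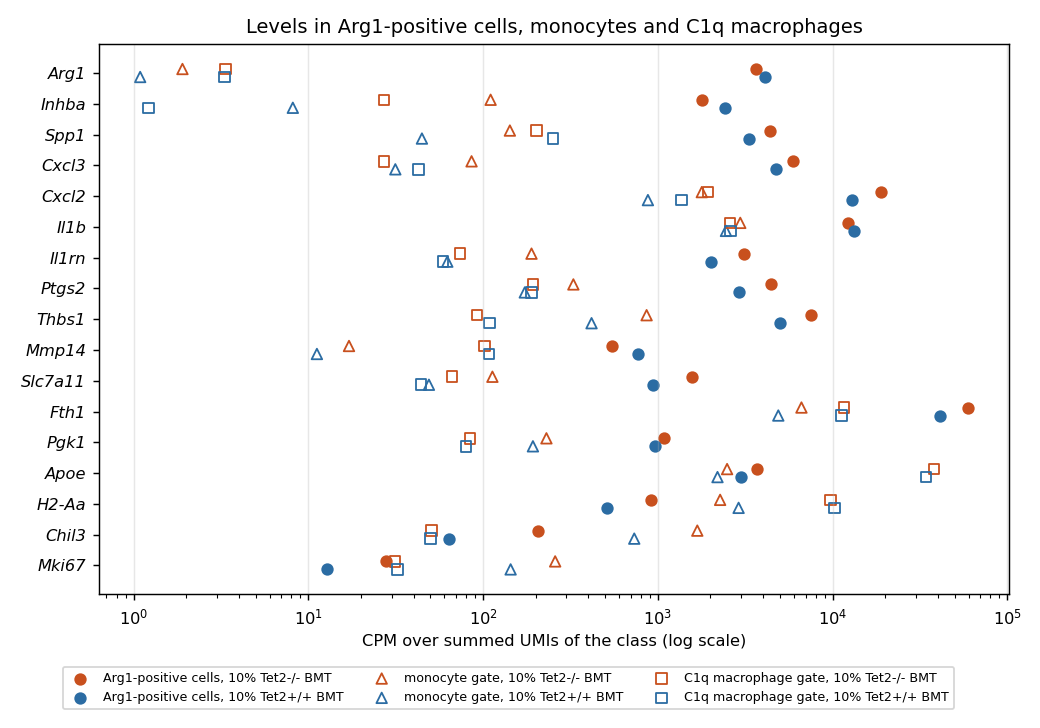
Level of 17 genes in CPM (log scale) over the summed UMIs of each class; filled circles are Arg1-positive cells, open triangles monocytes and open squares C1q macrophages, with 10% Tet2-/- BMT in orange above 10% Tet2+/+ BMT in blue. From Inhba to Pgk1 the Arg1-positive cells of both libraries lie to the right of both other classes, while for H2-Aa they lie to the left of both.

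Glycolysis stood out from mitochondrial respiration. Of 19 glycolysis genes 15 were higher in the members than in monocytes and 0 lower, with median log2 ratios of 1.43 and 1.64, and 16 were higher than in C1q macrophages, with medians of 2.15 and 2.20. Pgk1 had 1078 CPM in members and 230.4 CPM in monocytes of the 10% Tet2-/- library, and 959 and 193 CPM in the 10% Tet2+/+ library. The glucose transporter Slc2a1 had 278 and 34.5 CPM in the first and 418 and 29.7 CPM in the second. The enzymes ran from 0.956% to 1.5% of a member's UMIs between the quartiles in the 10% Tet2-/- library and from 0.862% to 1.42% in the 10% Tet2+/+ library. Of 19 nuclear genes of oxidative phosphorylation, 0 passed 2-fold in either direction against monocytes or C1q macrophages, with medians of -0.53 and -0.56 against monocytes and 0.10 and -0.04 against C1q macrophages. Ribosomal protein genes took 9.93% and 7.76% of the members' UMIs, against 20.1% and 20.2% in monocytes and 16.0% and 15.5% in C1q macrophages. That difference enters every CPM.

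Of 15 genes of the hypoxia response, 13 were higher in members than in monocytes and 0 lower, with medians of 1.95 and 2.64, and against C1q macrophages the counts were the same, with medians of 2.51 and 2.77. Hif1a, the oxygen-regulated transcription factor, was found in 82 of 83 and 22 of 22 members and had 771 CPM in members and 175 CPM in monocytes of the 10% Tet2-/- library, and 959 and 146 CPM in the 10% Tet2+/+ library. Bnip3, a mitophagy receptor, had 261 and 13.8 CPM in the first and 269 and 15.5 CPM in the second. Egln3, the oxygen sensor that marks HIF for destruction, had 98.5 and 2.54 CPM in the first and 153 and 2.41 CPM in the second. Across thinned cells the rank correlation of Arg1 with the summed hypoxia list was 0.33 in 80 cells of the 10% Tet2-/- library. It was 0.64 in 22 cells of the 10% Tet2+/+ library. This pair is named because it was the largest computed for Arg1 in both libraries, and the rule cuts off the low end of Arg1. The correlations of Arg1 with the given markers were smaller, at 0.19 and 0.01 for Spp1, -0.12 and -0.05 for Inhba and -0.10 and 0.32 for Saa3. The correlation of the glycolysis list with the hypoxia list was 0.58 and 0.47. The cells of a library share their library and the free RNA in it, and these correlations are a description.

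Ferritin and part of the oxidative stress list were higher than in monocytes. Of 9 genes of iron handling 3 were higher and 0 lower, with medians of 1.14 and 0.77 on the log2 scale. Fth1, the heavy chain of ferritin, had a median of 668 UMIs per 10000 in members of the 10% Tet2-/- library (lowest 26.9, highest 1368) and 364 in members of the 10% Tet2+/+ library (lowest 41.8, highest 1039). Summed over the cells it reached 59418 and 41202 CPM, against 6633 and 4889.7 CPM in monocytes and 11609.6 and 11225 CPM in C1q macrophages. Of 13 genes of the oxidative stress response, 8 were higher than in monocytes and 0 lower. Slc7a11, which imports cystine for glutathione, had 1578 and 113 CPM in the 10% Tet2-/- library and 934 and 49.0 CPM in the 10% Tet2+/+ library and was found in 82 of 83 and 20 of 22 members. Sod2, the mitochondrial superoxide dismutase and a target of NF-kB, was 8.33-fold and 9.57-fold higher than in monocytes. Of 14 NF-kB targets and feedback genes 4 were higher than in monocytes and 0 lower.

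Receptors for microbial and damage signals were higher as a list. Of 12 pattern recognition receptors, 7 were higher than in monocytes and 8 higher than in C1q macrophages, and 0 were lower than either. Clec4n, the fungal receptor dectin-2, had 856 and 71.1 CPM in the 10% Tet2-/- library and 750.4 and 57.6 CPM in the 10% Tet2+/+ library, and Cd14, the co-receptor for lipopolysaccharide, 3838 and 694 CPM and 3935 and 473 CPM. Cd274 was 12.2-fold and 15.1-fold higher than in monocytes, and 5 of 10 checkpoint and suppressive genes were higher and 0 lower.

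The genes usually named beside Arg1 as products of interleukin 4 did not accompany it. Of 10 genes of alternative activation, 1 was higher and 5 lower than in monocytes, with medians of -0.96 and -1.20, and 1 of 11 was higher and 5 lower than in C1q macrophages. Retnla had 2.99 CPM in members and 180.4 CPM in monocytes of the 10% Tet2-/- library, 60.4-fold lower (20.6 to 293), and 4.26 and 193 CPM in the 10% Tet2+/+ library, 45.3-fold lower (8.12 to 1789). Chil3 had 207 and 1682 CPM in the first, 8.12-fold lower (7.09 to 9.35), and 64.0 and 733 CPM in the second, 11.5-fold lower (6.95 to 20.5). The gene of the list that was higher in both comparisons was Il4ra, the receptor chain for interleukin 4, with 216 and 303 CPM in members against 85.9 and 68.0 CPM in monocytes.

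Antigen presentation by MHC class II was lower as well. Of 11 genes, 7 were lower than in monocytes and 1 higher, with medians of -1.20 and -2.23, and against C1q macrophages the counts were the same, with medians of -2.63 and -3.19. H2-Aa had 918 CPM in members, 2272 CPM in monocytes and 9759 CPM in C1q macrophages of the 10% Tet2-/- library, and 512, 2898 and 10251 CPM in the 10% Tet2+/+ library. The higher gene was Cd80, a costimulatory molecule, with 133 and 149 CPM in members against 25.7 and 23.0 CPM in monocytes. Apoe, a leading gene of C1q macrophages, was 10.3-fold and 11.4-fold lower in the members than in those cells, though 1.48-fold and 1.37-fold higher than in monocytes. Other genes of C1q macrophages were also much lower in the members. Selenop, which encodes a selenium carrier, had 87.6 CPM in members and 1243 CPM in C1q macrophages of the 10% Tet2-/- library, and 68.2 and 979 CPM in the 10% Tet2+/+ library. The tetraspanin Cd81 was 28.1-fold and 18.2-fold lower and Ly86, a partner of the lipopolysaccharide receptor family, 11.7-fold and 15.3-fold lower. Cxcl9, an interferon-gamma target, had 18.9 and 452 CPM in the first library and 8.53 and 423 CPM in the second. Fcrls and Gpr34 had 0 UMIs in members of the 10% Tet2+/+ library and were at least 20.6-fold and 7.41-fold lower there, and 33.8-fold and 31.9-fold lower in the 10% Tet2-/- library. Of the immediate early genes 6 of 14 were lower than in C1q macrophages.

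Cycling transcripts were scarce. All 12 genes of the G2/M list were lower in members than in monocytes, with medians of -2.49 and -2.43. Mki67 had 27.9 CPM in members and 259 CPM in monocytes of the 10% Tet2-/- library, and 12.8 and 144 CPM in the 10% Tet2+/+ library, and it was found in 3 of 83 and 2 of 22 members. That contrast rests on the cycling cells within the monocyte gate. With cells carrying Mki67, Top2a, Elane, Prtn3 or Mpo left out of that gate, Mki67 was higher in the members, with log2 ratios of 1.92 and 1.19, because the comparison class then holds 0 of it by construction. The same holds for the granule genes Prtn3, Elane and Mpo, which were lower than in the full monocyte gate, at 40.8 and 941 CPM for Prtn3 in members and monocytes of the 10% Tet2-/- library. Ctsg, which did not define that alternative, had 10.9 and 317 CPM in the 10% Tet2-/- library and 0 and 120.4 CPM in the 10% Tet2+/+ library, and with those cells left out its log2 ratio was 0.84 in the 10% Tet2-/- library. Markers of other monocyte states were lower too. Cd209a, a gene of monocyte-derived dendritic cells, had 4.98 CPM in members and 96.7 CPM in monocytes of the 10% Tet2-/- library, and 0 and 121 CPM in the 10% Tet2+/+ library, at least 9.49-fold lower. Ifitm6, an interferon-inducible membrane protein, was 6.85-fold and 7.33-fold lower, and Ramp1, a subunit of the receptor for the neuropeptide CGRP, had 16.9 and 183 CPM in the first library and 4.26 and 178 CPM in the second.

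**Figure D4:**
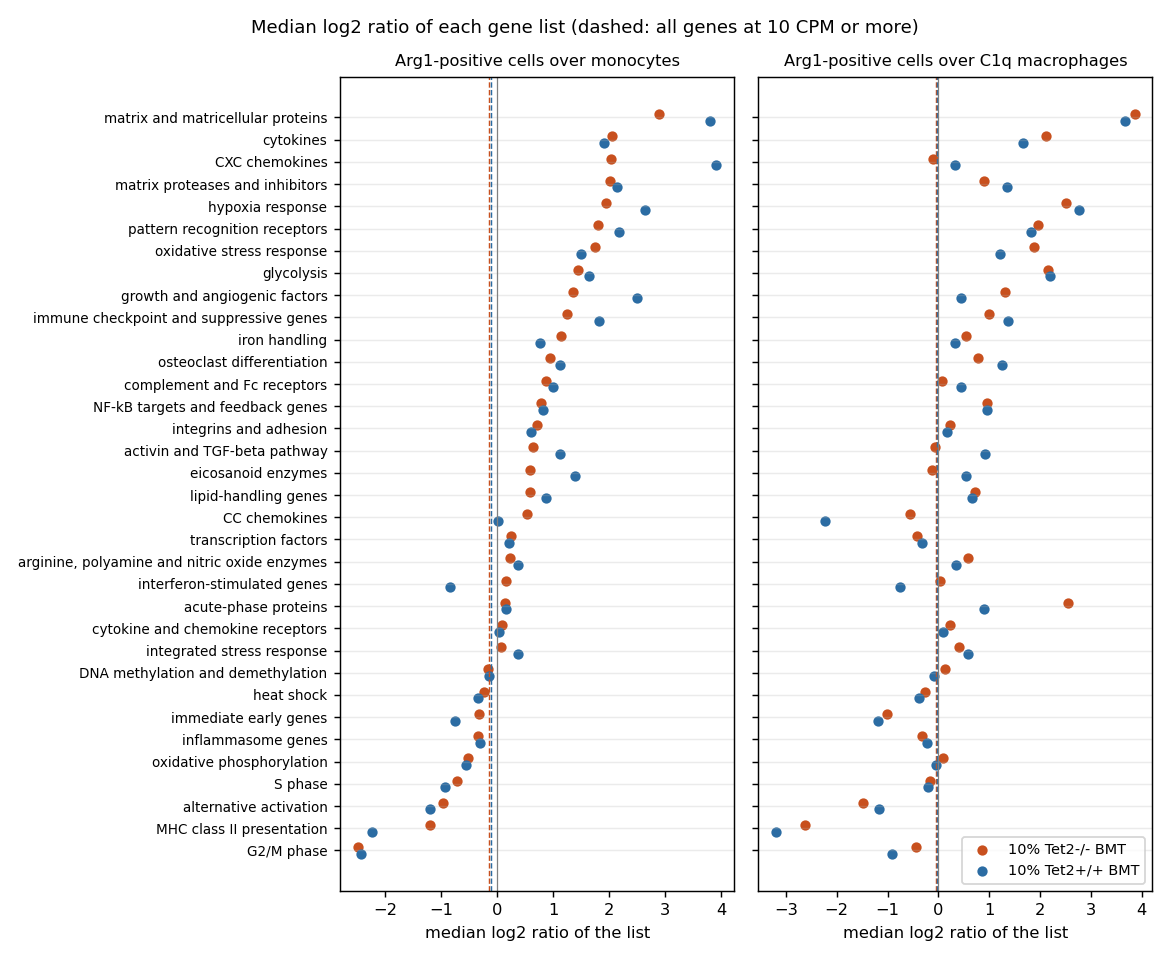
Median log2 ratio of each of 34 gene lists, members over monocytes on the left and over C1q macrophages on the right, with 10% Tet2-/- BMT in orange above 10% Tet2+/+ BMT in blue; dashed lines are the medians of all genes at 10 CPM or more. Matrix, cytokine, hypoxia and glycolysis lists lie on the right of 0 in both panels and both libraries, and MHC class II and alternative activation on the left.

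Within the Arg1-positive cells the 2 libraries were compared gene by gene. A gene was included when 1 of the libraries reached 50 CPM and their counts summed to 100 UMIs or more, and it was called past 1.5-fold with 10 CPM added to each level. Of 1774 genes, 162 were higher in the 10% Tet2-/- library (9.13%) and 121 lower (6.82%), and the median log2 ratio was 0.03. Under TMM scaling, which trims extreme genes before it sets the scale, 266 were higher and 74 lower, and with the highest cell of each gene left out 203 were higher and 53 lower. Without the members over the 95th percentile of UMIs 127 were higher and 145 lower, and without the members that carried haemoglobin 134 and 133. The 10% Tet2+/+ side holds 22 cells, so 1 cell can carry a gene. Among the 5 given markers Spp1 was 1.33 times as high in the 10% Tet2-/- library (1.23 to 1.43) and Saa3 1.72 times (1.45 to 2.04), while Inhba was 0.738 times as high (0.671 to 0.813) and Arg1 0.889 times. Il6 had 114 CPM (94.5 to 137) in the 10% Tet2-/- library and 93.8 CPM (58.8 to 142) in the 10% Tet2+/+ library, a ratio of 1.22 whose interval, 0.769 to 2.02, includes no difference, and its counts in the 10% Tet2+/+ library came from 2 cells, with 95.5% in 1 of them. In Saa3 the highest cell held 31.7% and 88.7% of the counts, and in Spp1 20.7% and 32.1%. The per-cell ranges of these genes overlapped between the libraries.

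Several genes higher in the 10% Tet2-/- library were spread over many of its cells. Acod1 had 633 CPM in 67 of 83 members of the 10% Tet2-/- library and 145 CPM in 9 of 22 of the 10% Tet2+/+ library, a ratio of 4.37 (3.09 to 6.36), and its highest cells held 5.82% and 35.3% of the counts. Glrx, a redox enzyme that uses glutathione, had 474 CPM in 66 cells and 115 CPM in 14 cells, a ratio of 4.12 (2.79 to 6.31), with 6.09% and 22.2% in the highest cells. Ccl2, the chief attractant of monocytes, had 304 CPM in 29 cells and 64.0 CPM in 5 cells, a ratio of 4.75 (2.83 to 8.59), with 19.7% and 40% in the highest cells. Procr, the receptor of protein C, had 254 CPM in 35 cells and 68.2 CPM in 6 cells, a ratio of 3.72 (2.25 to 6.61), with 10.6% and 37.5%.

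Other large ratios rested on few cells or had much of the count in 1 cell. Mmp13, a collagenase, had 1139.8 CPM in the 10% Tet2-/- library and 42.6 CPM in the 10% Tet2+/+ library, a ratio of 26.7 (14.5 to 55.9), but from 12 and 2 cells, and the highest cells held 46.1% and 90.0%. Areg, a growth factor of epithelium, had 242 UMIs from 7 cells and 0 UMIs, at least 18.8-fold higher when set against 3 counts over the 10% Tet2+/+ members. Saa1 had 116 UMIs from 3 cells, with 97.4% in 1 of them, and 0 UMIs in the 10% Tet2+/+ library, at least 9.03-fold higher on the same floor. Hist1h2ap, a histone gene, owed 87.1% of its 201 UMIs to 1 cell. Serpinb2, a protease inhibitor, had 186 CPM in 24 cells and 34.1 CPM in 2 cells, with 51.3% from 1 cell of the 10% Tet2-/- library. Cxcl10, G0s2 and the interferon-induced Rsad2 were 20.2, 9.30 and 7.29 times as high, in 12, 29 and 23 cells of the 10% Tet2-/- library, with 44.3%, 30.1% and 31.5% of its counts in 1 cell.

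Genes lower in the 10% Tet2-/- library included some found in most cells. Crip1, which encodes a small LIM-domain protein, had 1463 CPM in 70 of 83 members of the 10% Tet2-/- library and 3662 CPM in 21 of 22 of the 10% Tet2+/+ library, a ratio of 0.40 (0.367 to 0.435). Cxcl16, a membrane-bound chemokine, had 206 CPM in 59 cells and 495 CPM in 21 cells, a ratio of 0.417 (0.330 to 0.528). Ecm1, a matrix protein, had 382 CPM in 59 cells and 972 CPM in 19 cells, and Sdc1 312 CPM in 55 cells and 708 CPM in 15 cells. The ratios were 0.393 and 0.440. Acp5 had 366 and 921 CPM, a ratio of 0.398. Rsrp1 and Nupr1 came to ratios of 0.353 and 0.352, with 23.5% and 47.2% of their 10% Tet2+/+ counts in 1 cell. Mmp12, Cxcl1, Hspa1a, Pltp and Cx3cr1, with ratios from 0.254 to 0.365, had between 43.9% and 91.7% of their 10% Tet2+/+ counts in 1 cell. For Cx3cr1 that share was 91.7%, and without the highest cell of each library its log2 ratio was 1.30 in place of a negative value.

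**Figure D5:**
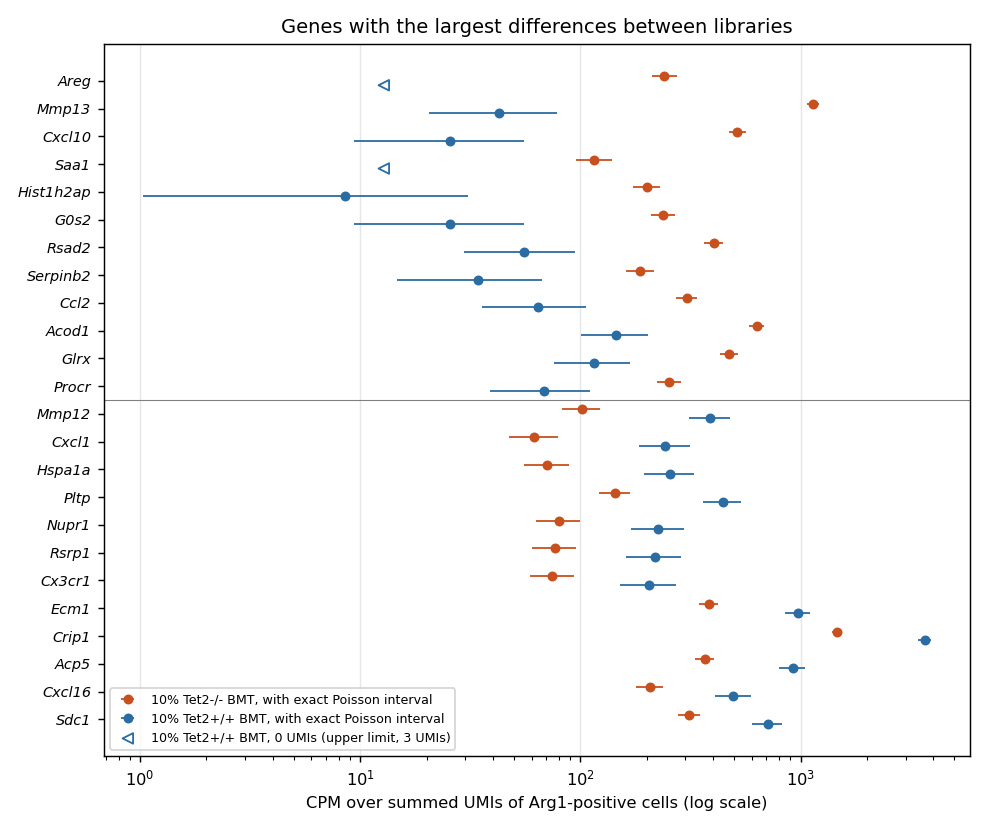
Level in CPM (log scale) of the 12 genes highest and the 12 lowest in 10% Tet2-/- BMT over 10% Tet2+/+ BMT within the Arg1-positive cells; dots are summed levels with exact Poisson intervals of the counts, and open triangles mark 0 UMIs at the limit of 3 UMIs. The libraries' intervals do not overlap for any of the 24 genes, but they cover counting error only and not the differences between cells. The genes were picked for their large ratios, so the gaps between the intervals follow in part from that choice.

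At the list minimum of 10 CPM, 13.4% of 7524 genes were higher and 16.0% lower in the 10% Tet2-/- library, with a median log2 ratio of -0.05. In members of the 10% Tet2+/+ library 3 UMIs already make 12.8 CPM, so list counts can rest on genes with few UMIs there. Of 15 hypoxia response genes, 0 were higher and 7 lower, with a median of -0.54, and the alternatives computed put it between -0.57 and -0.25. Ddit4 had 120.4 CPM in the 10% Tet2-/- library and 230.2 CPM in the 10% Tet2+/+ library, and Ndrg1 194 and 333 CPM. Of 13 genes of the oxidative stress response, 6 were higher and 0 lower, with a median of 0.42. The antioxidant enzyme Prdx1 had 2081 and 908 CPM, and Srxn1, which reactivates it, 92.6 and 42.6 CPM. Of 19 interferon-stimulated genes 7 were higher and 1 lower, with a median of 0.42. Isg15 had 323 and 98.1 CPM, in 48 and 9 cells.

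Further lists are given by their counts and medians, and not every list is covered. The largest median, 1.13, was that of the G2/M list, with 4 of 5 genes higher and 0 lower in the 10% Tet2-/- library. Acute-phase proteins were 3 higher and 0 lower of 5, with a median of 0.70. Matrix and matricellular proteins were 1 higher and 3 lower of 6, with a median of -0.50. Of 15 cytokines 5 were higher and 1 lower in the 10% Tet2-/- library, with a median of 0.26. Per cell, the cytokine list took a median of 2.01% of a member's UMIs in the 10% Tet2-/- library (quartiles 1.36 and 3.05%) and 1.03% in the 10% Tet2+/+ library (quartiles 0.340 and 2.91%). MHC class II genes were 6 higher and 1 lower of 11, with a median of 0.64, which became -0.64 when cells with 3 or 4 Arg1 UMIs were added. Of 10 genes of the activin and TGF-beta pathway 0 were higher and 4 lower, with a median of -0.47, among them Tgfbi with 1224 CPM in the 10% Tet2-/- library and 2221 CPM in the 10% Tet2+/+ library. The 19 glycolysis genes had 1 higher and 1 lower, with a median of 0.05, and of the 19 oxidative phosphorylation genes 0 passed in either direction, with a median of 0.09. The 6 measured genes of DNA methylation and demethylation, Tet2 among them, had 0 in either direction and a median of 0.12.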

How the data were processed

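Libraries of gingival CD11b+ cells were made with a droplet kit for 3' ends (Chromium Next GEM, v3.1), per the labels' protocols. The deposited files hold raw UMI counts per gene and cell barcode for both libraries. The submitters' processing notes name Cell Ranger 6.1.2 and mm10, while the file headers name Cell Ranger version 4. The authors' matrices carry no cell type labels.

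Barcodes with at least 500 UMIs, at least 250 genes and at most 10% mitochondrial UMIs were kept, 9596 in the 10% Tet2-/- library and 11672 in the 10% Tet2+/+ library. No doublets were removed. Alternatives left out the deepest members, those with transcripts of other cell types and those with haemoglobin. UMIs were summed per class and library and scaled to CPM with Python 3.11.15, numpy 2.4.6, scipy 1.17.1 and pandas 2.3.3. The fold calculation was checked on simulated counts. Intervals are exact Poisson, conditional binomial or Clopper-Pearson. With 1 library per group no test was run.

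The members, gene lists and gates were chosen with earlier results of these data known. Between libraries the 12 highest and 12 lowest included genes were named, and in each class comparison the most different of 15 higher and 15 lower, ranked by the smaller log2 ratio. Rule genes and ribosomal, mitochondrial, haemoglobin, immunoglobulin, T cell receptor, sex-linked and unnamed genes were left out of the ranking. The given markers, Tet2 and up to 4 genes of a list were added. RefSeq windows are on GRCm38.p6, whose chromosomes are those of mm10. Other genes were named after their values were seen.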

Additional observations from a re-analysis of the deposited data

Results flagged for a closer look

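In 2 genes the members and the monocytes of the same library differed in opposite directions in the 2 libraries. The log2 ratio of members over monocytes for Cxcl10, a chemokine induced by interferon, was 1.65 in the 10% Tet2-/- library (517 and 157 CPM) and -1.92 in the 10% Tet2+/+ library (25.6 and 124 CPM), a difference of 3.57. For G0s2, an inhibitor of fat breakdown, it was 1.04 in the 10% Tet2-/- library (238 and 111 CPM) and -1.88 in the 10% Tet2+/+ library (25.6 and 121 CPM), a difference of 2.92. Members of the 10% Tet2+/+ library had 6 UMIs of each gene, and 1 cell held 44.3% of the Cxcl10 and 30.1% of the G0s2 counts among members of the 10% Tet2-/- library. With 1 library per group neither difference was tested.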

How the results depend on the processing

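No paired analysis was possible because each group has 1 library and no fit was made. The ratio of the shares of members lay between 3.61 and 5.01 under the alternatives computed for it. Thinning every cell to 2000 UMIs left 42 higher and 24 lower genes between the libraries, 163 higher than in monocytes and 130 higher than in C1q macrophages, with fewer genes included. TMM scaling gave 266 higher and 74 lower between the libraries, and the median log2 ratio of all included genes was then 0.16 in place of 0.03. Including genes from 10 CPM gave 1007 higher and 1205 lower between the libraries, 466 lower than in monocytes and 426 lower than in C1q macrophages. An Arg1 minimum of 3 UMIs gave 180 genes lower than in monocytes. With the highest cell of each gene left out, an alternative chosen after seeing the data, 53 genes were lower between the libraries and 442 lower than in monocytes; such a removal takes a larger share from 22 cells than from 83. The share of calls that were higher was 57.2% between the libraries, 63.6% thinned, 78.2% with TMM, 45.5% from 10 CPM, 46.7% without the members over the 95th percentile of UMIs and 79.3% without the highest cells. Against monocytes it was 52.2%, and 62.2% with the Arg1 minimum of 3, 28.8% thinned, 61.5% with median-of-ratios scaling and 36.5% without the highest cells. Against C1q macrophages it was 59.5%, and 37.8% thinned, 49.6% with median-of-ratios scaling and 42.8% without the highest cells.

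Of the genes named between libraries, Cx3cr1 changed sign, to log2 ratios of 1.37 with an Arg1 minimum of 10, 0.97 without members carrying other cell types' transcripts and 1.30 without the highest cell. Il6 over monocytes in the 10% Tet2+/+ library became -0.29 without its highest cell. With monocytes that carry cycling or granule transcripts left out, also chosen after seeing the data, the log2 ratios in the 10% Tet2-/- library became 2.35 for Prtn3, 0.84 for Ctsg, 1.96 for Elane, 0.19 for Ube2c, 0.68 for Mpo, 0.24 for Nusap1, 1.92 for Mki67, 1.88 for Top2a and 0.97 for Birc5. In the 10% Tet2+/+ library they became 0.89 for Prtn3, 1.44 for Elane, 0.51 for Mpo and 1.19 for Mki67. The gate was defined by the absence of Mki67, Top2a, Elane, Prtn3 and Mpo. For the other changes the cause was not tested. Leaving out the haemoglobin-carrying members, also added after seeing the data, gave 134 higher and 133 lower genes between the libraries. Over all alternatives and named genes, 462 values between the libraries stayed close to the ones given, 75 moved and 3 changed sign. Against monocytes 904 stayed, 234 moved and 14 changed sign, and against C1q macrophages 895 stayed, 159 moved and 0 changed sign.

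Depth limits the 10% Tet2+/+ side most, since its members hold 234551 UMIs and the floor of 3 counts there is 12.8 CPM. Counting intervals do not cover differences between cells, mice or libraries. Gate, sex and genotype cannot be told apart, and fewer cells of a kind cannot be told from less Arg1 per cell.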

Other observations

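Xist and Y-linked transcripts in the 10% Tet2-/- library were not spread evenly over the kinds of cell. Among members, 69 of 83 had Xist alone and 4 had Y-linked transcripts alone. Among monocytes the counts were 1111 and 22 of 1251. Among C1q macrophages they were 258 and 152 of 622, with 47 cells holding both and 165 holding neither. In the 10% Tet2+/+ library no member, monocyte or C1q macrophage had an Xist transcript. None of these counts was tested, and the labels do not give the sex of donors or hosts. Median depths were 11221 UMIs in members, 13620.0 in monocytes and 10819 in C1q macrophages of the 10% Tet2-/- library.

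Among the 5 members with both Saa3 and Spp1 in the 10% Tet2-/- library, 1 carried haemoglobin, against 1 of the 14 with Saa3 alone, 2 of the 49 with Spp1 alone and 3 of the 15 with neither.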
